A study of Mus musculus with 88 samples.

Results

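Gene expression after 1 h with lipopolysaccharide (LPS) plus isoproterenol (ISO) was compared with that after 1 h with LPS without ISO, in RAW 264.7 cells, a mouse macrophage-like line. The comparison uses 12 of the 88 arrays of the series, found by treatment and time in the labels: 6 arrays (3 sets) of LPS plus ISO and 6 arrays (3 sets) of LPS. LPS plus ISO cells received 100 ng/ml LPS and 50 nM ISO, and LPS cells received 100 ng/ml LPS. The labels name 100 pM lipid binding protein, which carries LPS to its receptor, for LPS alone and not for LPS plus ISO, so the addition of ISO and the absence of this protein from the label cannot be told apart in the comparison itself. Cells with 50 nM ISO alone for 1 h and cells with 100 ng/ml LPS plus 10 µM prostaglandin E2 (PGE2) for 1 h, 3 sets each, are given beside it, and neither is labelled with the protein.

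Each array set RNA of treated cells against RNA of cells kept in medium for 1 h, and the 2 arrays of a set swapped the dyes. Values are log2 ratios of treated over medium, averaged over the 2 arrays, so that 1 unit is a 2-fold difference. The direction is likely rather than stated: once turned by the dye labels, Tnf (2.85 to 3.99) and Egr1 (4.32 to 6.08), both induced by LPS in macrophages, lay above 0 on 12 of 12 arrays, as did the median of the NF-kB genes (0.38 to 1.19). The sources do not say what a value of exactly 0 means, and such zeros filled 16.6 to 30.8% of probes per array. The 2 arrays of a set correlated at 0.20 to 0.65 over probes. Of 14 macrophage markers on the array, 13 had a value other than 0 on all 12 arrays, against 4 of 5 for neutrophils, 2 of 5 for fibroblasts, 1 of 5 for T cells, 1 of 4 for B cells, 1 of 4 for mast cells and 0 of 5 for epithelium. Of these, 2 epithelial markers and 1 mast cell marker were at 0 on all 12 arrays. No marker passed the test, and ratios carry no level, so they do not show how abundant any marker was. Set 1 stood apart: its difference between the treatments had an SD over genes of 0.34, against 0.16 in set 2 and 0.14 in set 3. The labels do not tell whether sets are separate cultures. The p-values therefore measure only how far the sets differ, which may be technical.

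LPS binds CD14 and the TLR4 complex on macrophages and starts NF-kB and MAP kinase signalling, which within an hour induces cytokines such as TNF together with short-lived transcription factors and their feedback inhibitors. ISO is a synthetic agonist of beta-adrenergic receptors, which act through the G protein Gs and adenylyl cyclase to raise cyclic AMP (cAMP). Protein kinase A then phosphorylates CREB, a factor that binds the cAMP response element in promoters. In macrophages, cAMP is known for lowering TNF production and for raising IL-10.

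ISO added to LPS was accompanied at 1 h by a higher Nr4a1 ratio and a lower Plk2 ratio, and by no other difference that passed the test. Of 10518 genes tested, 2 (0.019%) passed at an adjusted p of 0.05 (limma, Benjamini-Hochberg over all genes), 1 higher and 1 lower. At an unadjusted p of 0.05, 629 genes (5.98%) passed, 455 higher and 174 lower. That count rested on single sets: it was 208 without set 1 of both treatments, 273 without LPS set 1, 401 without LPS plus ISO set 1, 1000 without LPS set 3 and 953 without set 3 of both treatments. Same-numbered sets of the 2 treatments deviated together, and with the set number within each time as a block the count was 6 genes (0.057%), 3 higher (Nr4a1, Smim3 and Srgn) and 3 lower (Plk2, Rgs1 and Ptger4). With the same block as a random effect it was 2 again, Nr4a1 and Plk2. Few genes differed by much: 4 (0.038%) had a mean difference of at least 2-fold upward and 4 (0.038%) downward. Of these, 3 higher (Nr4a1, Il1b and Ibsp) and 3 lower (Plk2, Rgs1 and Atf3) had the same sign in all 3 set pairs, each 0.0285% of genes. Ibsp, which encodes a bone matrix protein, was named after its values were seen (difference 1.03, adjusted p = 0.814 in limma).

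**Figure D1:**
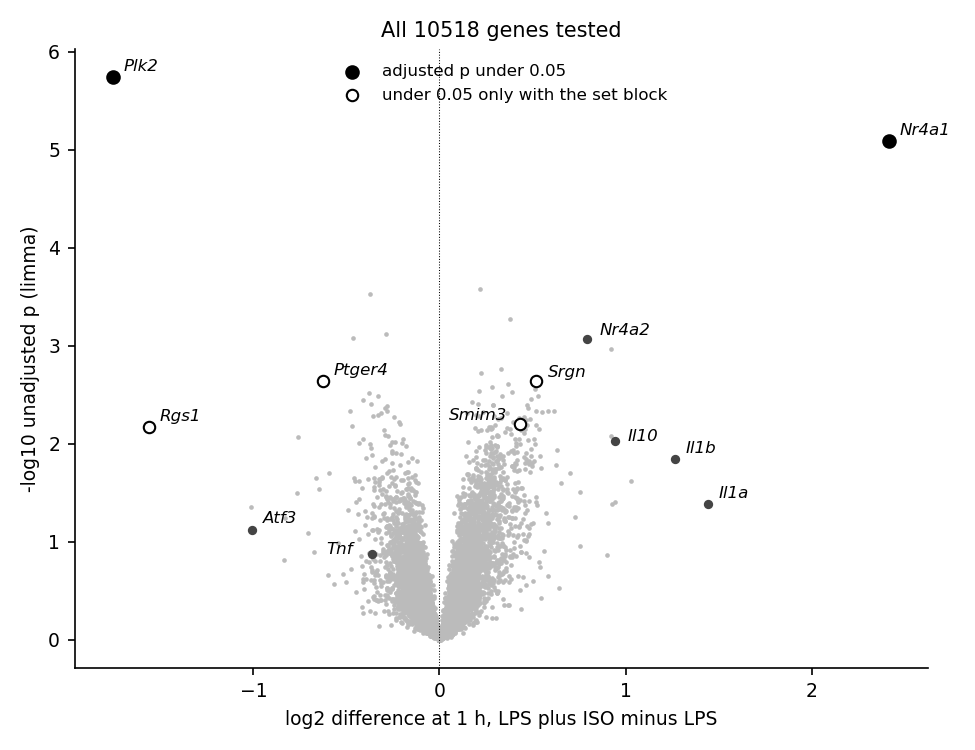
Each grey point is a gene, with the log2 difference between LPS plus ISO and LPS at 1 h on the x axis and the −log10 unadjusted limma p on the y axis. Nr4a1 on the right and Plk2 on the left lie above all other genes, and the open circles mark the 4 genes that passed only with the set number within each time as a fixed block.

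Nr4a1 encodes an orphan nuclear receptor that is induced within an hour by many stimuli, cAMP among them. Its log2 ratio was 4.06, 3.51 and 3.99 in sets 1, 2 and 3 of LPS plus ISO, against 1.40, 1.13 and 1.77 in sets 1, 2 and 3 of LPS. Every LPS plus ISO set lay above every LPS set, as for 3.55% of all genes, and single arrays ran from 3.37 to 4.23 in LPS plus ISO and from 1.10 to 1.89 in LPS. The means were 3.85 ± 0.30 in LPS plus ISO and 1.44 ± 0.32 in LPS (SD, n = 3 each). The difference was 2.42 (95% interval 1.49 to 3.34), or 5.34-fold higher with ISO, with an adjusted p of 0.0428 in limma and 1.32e-06 with the set block. Leaving out any 1 of the 6 sets kept the difference between 2.26 and 2.59 but lifted the adjusted p to between 0.0503 and 0.324. In such bulk ratios, more expressing cells and more RNA per cell cannot be told apart. Without set 1 in both treatments the difference was 2.30, with an adjusted p of 6.10e-04 with the set block and 1 without it.

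Plk2 encodes polo-like kinase 2, a serum-inducible kinase of the stress and cell cycle response. Its log2 ratio was −0.22, 0.58 and 0.17 in sets 1, 2 and 3 of LPS plus ISO, against 2.23, 1.71 and 1.84 in sets 1, 2 and 3 of LPS. LPS alone thus stood well above medium in all 3 sets, whereas LPS plus ISO lay on both sides of 0. Every LPS plus ISO set lay below every LPS set, as for 2.79% of all genes. The means were 0.17 ± 0.40 in LPS plus ISO and 1.93 ± 0.27 in LPS (SD, n = 3 each). The difference was −1.75 (95% interval −2.36 to −1.14), or 3.37-fold lower with ISO, with an adjusted p of 0.0193 in limma and 7.28e-04 with the set block. The 2 probes for Plk2 gave −1.83 and −1.68. With any 1 of the 6 sets left out, the call held only without LPS plus ISO set 2, and the adjusted p was otherwise 0.0503 to 0.319. Without set 1 in both treatments the difference was −1.40 and did not pass (adjusted p = 1 in limma, 0.180 with the set block).

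The promoters of these genes are shown because CREB binds the letters TGACGTCA, or the shorter TGACG, which reads CGTCA on the other strand. The windows run from 250 bases before to 50 bases after the RefSeq gene start (GRCm38.p6, 5′ to 3′ along the gene), with every TGACG or CGTCA in capitals, also where they overlap. Nr4a1 is at chr15:101266596-101266895 (+ strand), Plk2 at chr13:110394794-110395093 (+ strand), and Ptger4, which holds no such letters here, at chr15:5244138-5244437 (− strand).
Nr4a1: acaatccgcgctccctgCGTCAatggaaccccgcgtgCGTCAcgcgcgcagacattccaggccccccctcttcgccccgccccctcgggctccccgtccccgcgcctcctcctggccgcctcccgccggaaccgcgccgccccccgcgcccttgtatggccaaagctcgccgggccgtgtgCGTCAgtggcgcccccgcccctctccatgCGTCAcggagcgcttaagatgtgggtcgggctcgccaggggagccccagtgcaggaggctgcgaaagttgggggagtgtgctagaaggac
Plk2: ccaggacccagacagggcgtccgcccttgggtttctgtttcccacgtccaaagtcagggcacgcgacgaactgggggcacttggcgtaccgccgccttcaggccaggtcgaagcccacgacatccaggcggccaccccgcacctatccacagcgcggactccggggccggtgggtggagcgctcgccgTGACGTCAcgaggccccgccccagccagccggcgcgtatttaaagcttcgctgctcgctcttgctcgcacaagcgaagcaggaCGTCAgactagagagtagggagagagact
Ptger4: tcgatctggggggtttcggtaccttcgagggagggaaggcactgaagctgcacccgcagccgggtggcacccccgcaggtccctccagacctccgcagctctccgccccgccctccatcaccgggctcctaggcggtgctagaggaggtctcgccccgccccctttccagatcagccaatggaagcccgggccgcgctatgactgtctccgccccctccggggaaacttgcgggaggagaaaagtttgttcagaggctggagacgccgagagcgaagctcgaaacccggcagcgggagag
The Nr4a1 window holds the short letters 4 times, starting 233, 213, 69 and 40 bases before the gene start, and not the long form. Plk2, the gene that fell, holds the long form once, starting 62 bases before the gene start, and CGTCA once more after the start. Of 32851 RefSeq promoter windows of this length, 1.79% hold TGACGTCA, 20.8% hold the short letters at least once, and 0.231% hold them 4 or more times. Among other genes named here, the Nr4a2 window holds the short letters 4 times, that of Rgs2 2 times and that of Atf3 1 time. The windows of Il1b, Ier3 and Zfp36 hold none. Pde4b and Srgn have more than 1 window, and for each a window holds the short letters 1 time and the rest hold none. No window was available for Rgs1 and Crem. A match describes letters and not binding, which was not measured.

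Of the 4 genes that passed only with the set number within each time as a fixed block, 2 belong to G protein signalling and were lower. Rgs1, which encodes a GTPase-activating protein that switches off Gi and Gq signals, had −1.45, −1.72 and −2.82 in sets 1, 2 and 3 of LPS plus ISO, against −0.26, −0.39 and −0.66 in sets 1, 2 and 3 of LPS. All 6 sets lay below medium, those with ISO furthest, and 2.79% of all genes had every LPS plus ISO set below every LPS set. The difference was −1.56 (95% interval −2.66 to −0.46), with an adjusted p of 0.814 in limma, 0.0489 with the fixed block and 0.204 with the random block, and its 2 probes gave −1.53 and −1.59. Ptger4, which encodes EP4, a Gs-coupled receptor of PGE2, had −0.97, −0.50 and −0.76 in sets 1, 2 and 3 of LPS plus ISO, against −0.07, −0.15 and −0.14 in sets 1, 2 and 3 of LPS. LPS sets lay near medium and every LPS plus ISO set below them, the order that 2.79% of all genes showed. The difference was −0.62 (95% interval −1.01 to −0.24), with an adjusted p of 0.814 in limma, 0.0294 with the fixed block and 0.127 with the random block. With the fixed block, Rgs1 did not pass without any 1 of the set pairs (differences −1.74 to −1.26, adjusted p 0.0911 to 0.246). Ptger4 did not pass without set pair 1 (−0.48, adjusted p = 0.903) or 3 (−0.63, adjusted p = 0.118).

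The other 2 were slightly higher. Smim3, which encodes a small membrane protein, had means of 0.82 ± 0.24 in LPS plus ISO and 0.38 ± 0.10 in LPS (SD, n = 3 each), a difference of 0.43 with 0.60, 0.29 and 0.41 in set pairs 1, 2 and 3 (adjusted p = 0.814 in limma, 0.00206 with the fixed block, 0.127 with the random block). Srgn, which encodes serglycin, the core protein of secretory granule proteoglycans, had means of 1.54 ± 0.34 in LPS plus ISO and 1.02 ± 0.35 in LPS (SD, n = 3 each). Its difference of 0.52 was 1.04 in set pair 1 and 0.24 and 0.27 in the other two, and the treatments overlapped (adjusted p = 0.814 in limma, 0.0489 with the fixed block, 0.127 with the random block). Without set 1 the difference of Srgn was 0.26 and that of Smim3 0.35, and neither passed with the fixed block (adjusted p = 1 and 0.246).

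**Figure D2:**
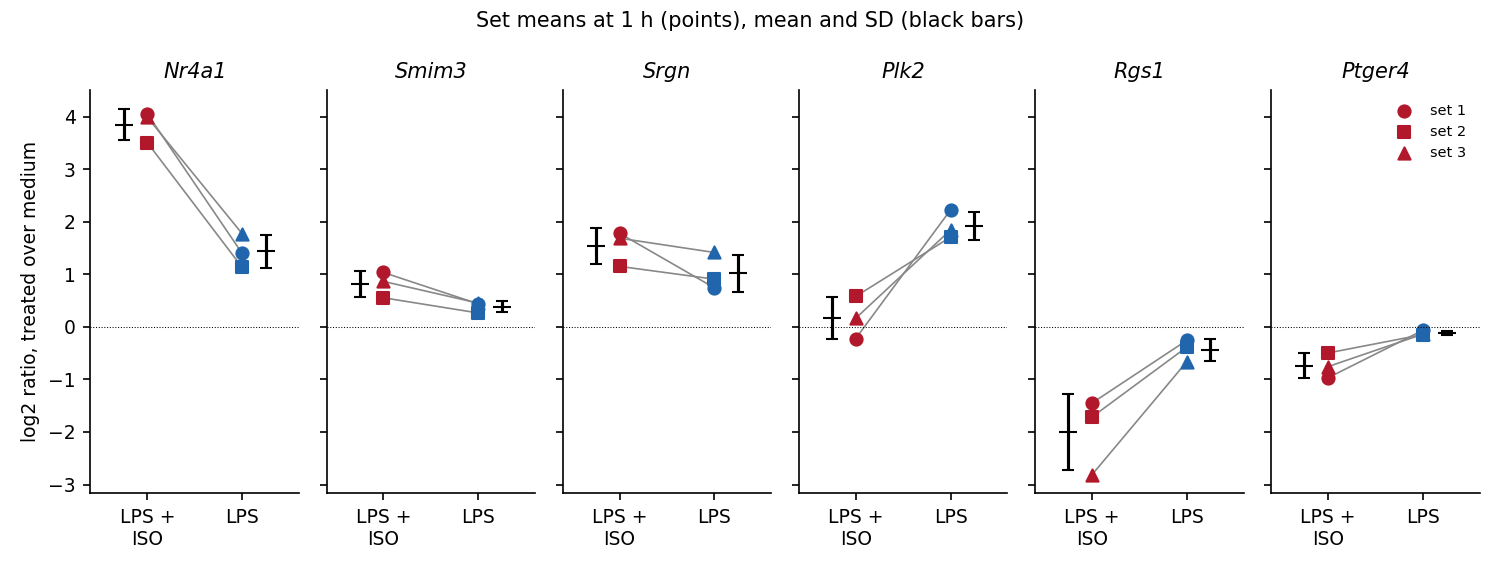
Log2 ratios of treated over medium for the 6 genes that passed in at least 1 of these fits, with LPS plus ISO left and LPS right in each panel. Symbols are set means, grey lines join sets of the same number, and black bars are the mean and SD of 3 sets. The treatments overlap for Srgn alone among the 6, which were picked by this same difference, so this is a description.

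Among 28 measured genes listed as cAMP and CREB targets, 1 rose (Nr4a1) and none fell. At an unadjusted p of 0.05, 5 were higher (Nr4a1, Il10, Nr4a2, Crem and Thbd) and 1 lower (Rgs2), where 4.33% of all genes were higher and 1.65% lower. The median difference of the list was 0.03, against 0 over all genes. The Nr4a1 relative Nr4a2 had a difference of 0.79 (95% interval 0.35 to 1.23, adjusted p = 0.814 in limma), but its 2 probes disagreed, at 1.61 and −0.02. Nr4a3, the remaining member of the family, had −0.08 (95% interval −0.30 to 0.13). Crem, whose short form ICER represses CREB targets, had a difference of 0.76, with 1.32, 0.01 and 0.94 in set pairs 1, 2 and 3 (adjusted p = 0.814 in limma). Atf3, a stress-induced repressor, had −1.01 with −2.04, −0.34 and −0.63 in set pairs 1, 2 and 3 (adjusted p = 0.881 in limma). It was lower in all 3 pairs, as were 14.7% of all genes. Set 1 made up most of the difference, which was −0.49 without that set.

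Genes that carry or end the cAMP signal showed few differences. Of 25 measured signalling components (receptors, G proteins, cyclases, kinase subunits and anchors, and CREB itself), none passed without the block and 1, Ptger4, was lower with the fixed block, as were 0.0285% of all genes. With the random block, whose correlation is estimated, Ptger4 did not pass (adjusted p = 0.127). The list's median difference was 0, and apart from Ptger4 its members lay between −0.25 (Gnai2, an inhibitory G protein subunit) and 0.31 (Pkib, a protein kinase A inhibitor). Of 13 phosphodiesterases, which degrade cyclic nucleotides, none passed (list median −0.05). Pde4b, the cAMP phosphodiesterase that LPS and cAMP both induce in macrophages, had 3.00 in LPS plus ISO and 2.41 in LPS, a difference of 0.58 (95% interval −0.37 to 1.54, adjusted p = 0.963 in limma). Of 14 regulators of G protein signalling none passed without the block and Rgs1 was lower with the fixed block (list median −0.07), but not with the random block (adjusted p = 0.204). Rgs2, an inhibitor of Gq signals, had −1.92 in LPS plus ISO and −1.16 in LPS, a difference of −0.77 (95% interval −1.46 to −0.07, adjusted p = 0.814 in limma).

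No cytokine or chemokine gene passed: of 33 measured, 3 were higher at an unadjusted p of 0.05 (Il1a, Il1b and Il10) and none lower, where 4.33% of all genes were higher and 1.65% lower, and the list's median difference was −0.02. Tnf, the main early cytokine of LPS-treated macrophages, had log2 ratios of 3.08, 3.48 and 3.26 in sets 1, 2 and 3 of LPS plus ISO, against 3.54, 3.66 and 3.70 in sets 1, 2 and 3 of LPS. Every LPS plus ISO set lay below every LPS set, and 2.79% of all genes showed that order. The difference of −0.36 did not pass (95% interval −0.84 to 0.12, adjusted p = 0.920 in limma, 0.419 with the set block), and the 3 Tnf probes gave −0.30, −0.43 and −0.35. Il1b, which encodes interleukin 1 beta, had 4.54, 3.31 and 4.62 in sets 1, 2 and 3 of LPS plus ISO, against 3.42, 1.16 and 4.09 in sets 1, 2 and 3 of LPS. It was higher with ISO in all 3 pairs, by 1.12, 2.15 and 0.53, and 14.5% of all genes were higher in all 3. The treatments overlapped because LPS sets spread widely (SD 1.54). The difference of 1.27 (95% interval 0.27 to 2.26) did not pass (adjusted p = 0.814 in limma, 0.251 with the set block), and its 3 probes gave 0.86, 1.74 and 1.20.

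Il10, which encodes an anti-inflammatory cytokine, had means of 1.76 ± 0.47 in LPS plus ISO and 0.82 ± 0.99 in LPS (SD, n = 3 each), a difference of 0.94 (95% interval 0.25 to 1.64, adjusted p = 0.814 in limma). All 3 pairs lay above 0, as for 14.5% of all genes, and the treatments overlapped. Il1a had a difference of 1.44 (95% interval 0.06 to 2.83, adjusted p = 0.814 in limma), which was 3.65 in set pair 1 and −0.28 in set pair 3. Of its 2 averaged probes, 1 was at 0 on 5 of 12 arrays and the other on 1. Il6 had 0.44 (95% interval −0.83 to 1.71), and the interferon-induced chemokine gene Cxcl10 had −0.57 (95% interval −1.60 to 0.46). Cxcl2, a neutrophil-attracting chemokine, was listed at 0 on 11 of 12 arrays and gave no usable difference.

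The machinery of the LPS response did not move past the threshold. Of 21 NF-kB subunits and feedback regulators none passed (list median −0.05, with the LPS plus ISO median at 0.83 and the LPS median at 0.83). Nfkbia, the NF-kB inhibitor, had a difference of 0.35 with 1.01, −1.01 and 1.05 in set pairs 1, 2 and 3 and was at 0 on 3 of 12 arrays. Of 16 LPS receptor and adaptor genes none passed (list median −0.06). The LPS receptor genes Tlr4 (0.19, 95% interval −0.09 to 0.48) and Cd14 (−0.05, 95% interval −0.36 to 0.26) had intervals that span 0. Of the 3 Tlr4 probes averaged, 1 was at 0 on all 12 arrays and the other two gave 0.46 and 0.13. Of 33 interferon-stimulated genes none passed, with a median difference of 0.04.

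**Figure D3:**
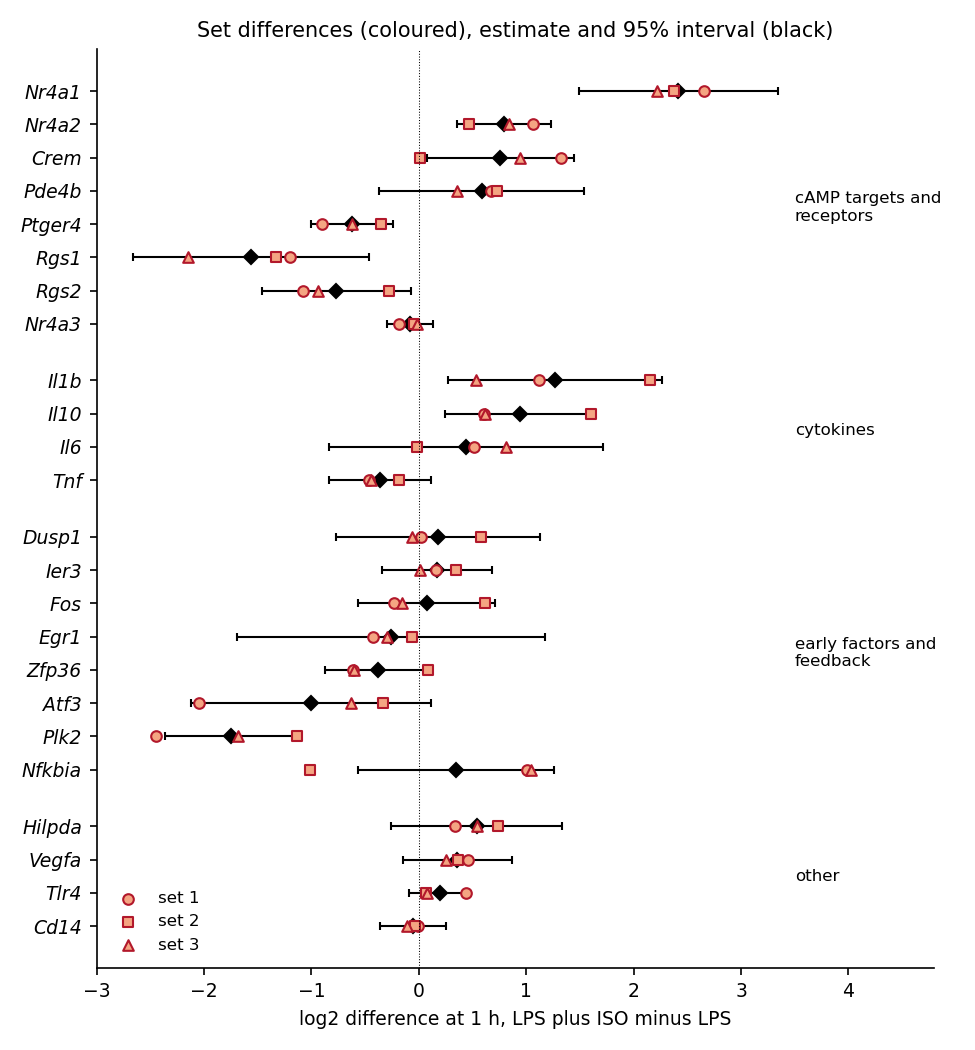
Log2 differences between LPS plus ISO and LPS at 1 h for genes grouped by role. Coloured symbols are the 3 set pairs, and black diamonds with bars are the estimate and 95% interval of the limma fit. Nr4a1 and Plk2 stand apart from 0, and Il1b, Atf3 and Nfkbia show wide spread between pairs.

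Serum-responsive immediate early genes, the first transcription factors and feedback genes to be induced, included 1 that fell, Plk2, of 31 measured, and none that rose. Their median difference was −0.15, against 0 over all genes, and 13 of 31 were lower in all 3 set pairs, where 14.7% of all genes were. The growth factor-induced transcription factor genes Egr2 (−0.83, 95% interval −1.69 to 0.03), Egr3 (−0.71, 95% interval −1.51 to 0.09) and Myc (−0.84, 95% interval −2.01 to 0.33) were among these 13 and did not pass. Over the 15 lists the share of genes lower in all 3 set pairs ran from 10% to the 41.9% seen here. It was 37.5% for LPS receptor and adaptor genes, 36.8% for heat shock and unfolded protein response genes and 35.7% for regulators of G protein signalling. Of 10 dual specificity phosphatases and Sprouty inhibitors, which end MAP kinase signals, none passed (list median 0.06). Dusp14 had a difference of 0.46 and Dusp3 of −0.23, both with an adjusted p of 0.814 in limma. Of 8 mRNA decay factors none passed (list median −0.16).

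In the remaining lists no gene passed. The median difference was 0.05 for 20 genes of glycolysis, hypoxia and lipid droplets, −0.01 for 19 heat shock and unfolded protein response genes, −0.02 for 17 eicosanoid enzymes and 0.03 for 16 reference genes. Of the reference genes, 2 were higher at an unadjusted p of 0.05, Tbp (0.36) and Actb (0.21), and none lower. Among all genes 4.33% were higher and 1.65% lower. LPS set 1 stood apart on several reference genes: Tbp had −0.87 there, against 0.03 and −0.03 in LPS sets 2 and 3, and Pgk1 had −1.03, against 0.15 and 0.14. The set pair 1 difference was 0.95 for Tbp and 0.90 for Pgk1, and the part of LPS set 1 in other differences was not tested beyond leaving it out. Ddit4, a stress- and hypoxia-induced inhibitor of mTOR complex 1, had 1.58 in LPS plus ISO and 0.65 in LPS, a difference of 0.93 (95% interval 0.04 to 1.82, adjusted p = 0.814 in limma). Hilpda, which encodes a lipid droplet protein, had 0.54 (95% interval −0.26 to 1.34), and Vegfa, the angiogenic growth factor gene, 0.36 (95% interval −0.15 to 0.87). Ptgs2, which encodes cyclooxygenase 2, had 0.90 (95% interval −0.30 to 2.11). In the heat shock and unfolded protein response list 3 chaperone genes were higher at an unadjusted p of 0.05 and 1 gene, Ddit3, lower. The shares over all genes were again 4.33% and 1.65%. The chaperone genes were Hsph1 (0.33), Hspe1 (0.27) and Hsp90aa1 (0.22), each with an adjusted p of 0.814 in limma. Hsph1 had 0.81 in set pair 1 against 0.11 and 0.08 in set pairs 2 and 3. Hspe1 had 0.82 in set pair 1 against 0.03 and −0.04 in set pairs 2 and 3, and Hsp90aa1 did not keep 1 sign in all 3 set pairs. Ddit3, which encodes the stress factor CHOP, had 0.64 in LPS plus ISO and 1.10 in LPS, a difference of −0.47 (95% interval −0.80 to −0.14, adjusted p = 0.814 in limma).

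Whether ISO changed genes equally with and without LPS was tested as the LPS plus ISO minus LPS difference, minus the ratio of ISO alone over medium. Nr4a1 and Plk2 had almost the same mean ISO difference in both settings. For Nr4a1 it was 2.42 with LPS and 2.43 ± 0.33 without (SD, n = 3), and for Plk2 −1.75 with LPS and −1.72 ± 0.76 without (SD, n = 3). The differences between settings were −0.02 and −0.03, each with an adjusted p of 1 in limma. Neither value without LPS comes from cells labelled with lipid binding protein. Ptger4 had −0.62 with LPS and −1.22 without, and Rgs1 −1.56 with LPS and −2.02 without, neither pair passing (adjusted p = 0.820 and 1 in limma).

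In this comparison 0 of 10518 genes (0%) passed in limma, 640 (6.08%) at an unadjusted p of 0.05. With the set number within each time as a random block 2 genes (0.019%) passed, Ier3 and Zfp36, and both had a smaller ISO difference with LPS than without. As a fixed block it gave 15 genes (0.143%), 14 of them lower, but the set number does not cancel in this comparison. That count is therefore given only as an alternative. Ier3, a survival gene induced by NF-kB, had ISO differences of 0.16, 0.34 and 0.01 in set pairs 1, 2 and 3 with LPS, against 1.83, 1.37 and 1.52 in sets 1, 2 and 3 without LPS. No pair with LPS came near a set without it, and the difference between settings was −1.40 (adjusted p = 0.249 in limma, 0.00917 with the random block). Zfp36, which encodes tristetraprolin, a factor that promotes decay of Tnf mRNA, had −0.61, 0.09 and −0.60 in set pairs 1, 2 and 3 with LPS, against 0.98, 1.40 and 0.43 in sets 1, 2 and 3 without LPS. The difference between settings was −1.31 (adjusted p = 0.249 in limma, 0.0258 with the random block).

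With ISO alone, 20 of 10518 genes stood at least 2-fold above medium, among them 7 of 28 cAMP and CREB targets and 6 of 31 serum-responsive genes. Those 6 were Ier3, Arc, Btg2, Egr1, Ier2 and Phlda1. Their ISO ratio without LPS was 1.05 to 1.57, and the difference with LPS was −0.42 to 0.17. LPS without ISO had already placed these 6 genes at 3.09 to 5.09 over medium, and LPS plus ISO at 2.74 to 4.83. For the other five, the difference between settings was −1.37 to −1.65 and did not pass in limma (adjusted p 0.425 to 0.831) or with the random block (adjusted p 0.0501 to 0.445). These 6 were picked by their response to ISO alone, so their values are a description. Of all 31 measured genes of the list, 25 had a smaller value with LPS than without, against 51.4% of all genes. The count was also high in other lists, with 22 of 28 cAMP and CREB targets, 16 of 21 NF-kB genes and 8 of 8 mRNA decay factors. These lists share members, among them Ier3 and Zfp36, and were chosen with earlier results of these data known. The value subtracts the ratio of ISO alone, so a list with many genes raised by ISO alone tends to a high count. The list counts are therefore a description as well.

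**Figure D4:**
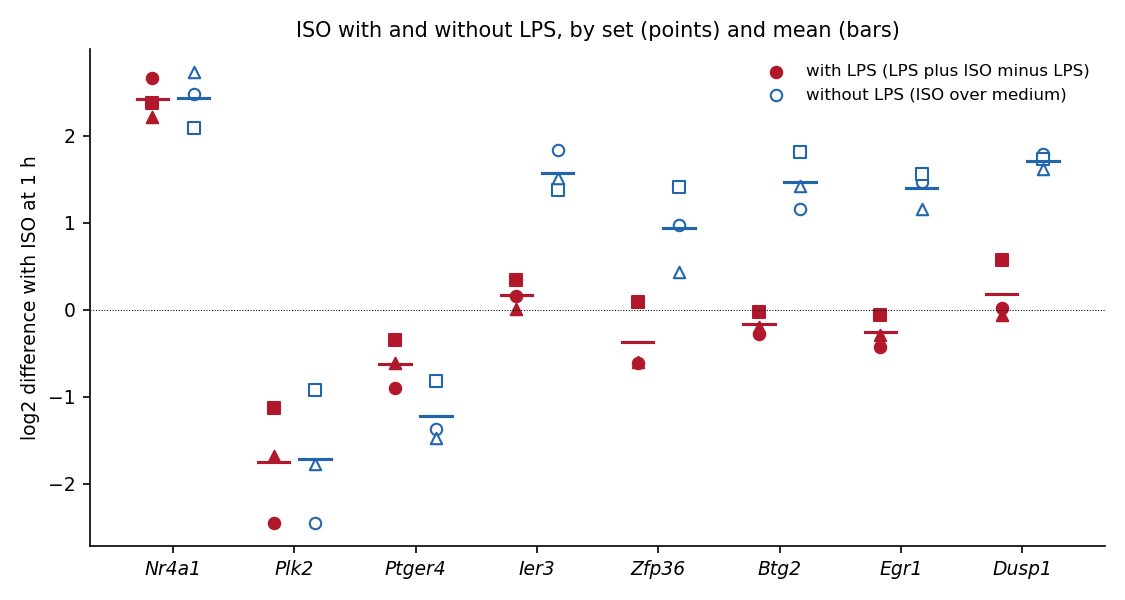
Log2 differences with ISO at 1 h, with LPS (filled symbols, LPS plus ISO minus LPS) left of those without LPS (open symbols, ISO over medium). Symbols are sets 1 (circle), 2 (square) and 3 (triangle), and bars are means. Nr4a1 and Plk2 have similar means in both settings. Ier3, Zfp36, Btg2, Egr1 and Dusp1 lie above 0 without LPS and lower with it, Zfp36 at −0.61 and −0.60 in set pairs 1 and 3.

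The treatment closest in kind was LPS plus PGE2, which also acts through Gs-coupled receptors. No gene (0%) passed between LPS plus ISO and LPS plus PGE2 in limma or with any of the set blocks over all 15 groups, and 128 (1.22%) had an unadjusted p under 0.05, or 223 (2.12%) with the fixed block within each time. Nr4a1 had 3.85 ± 0.30 in LPS plus ISO and 3.41 ± 0.28 in LPS plus PGE2 (SD, n = 3 each), a difference of 0.44 (95% interval −0.48 to 1.37). Plk2 had 0.17 ± 0.40 in LPS plus ISO and 0.45 ± 0.38 in LPS plus PGE2 (SD, n = 3 each), a difference of −0.28 (95% interval −0.89 to 0.33). Ptger4 differed by −0.06 (95% interval −0.44 to 0.32), Rgs1 by −0.39 (95% interval −1.48 to 0.71) and Tnf by −0.08 (95% interval −0.56 to 0.39). These intervals leave room for differences of more than 1 log2 unit in Nr4a1 and Rgs1, and the concentrations, 50 nM ISO and 10 µM PGE2, are not matched.

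The difference between LPS plus ISO and LPS was also followed to 2 and 4 h, where Nr4a1 came closer to LPS. Its difference was 2.42, 0.94 and 0.09 at 1, 2 and 4 h, and the 2 h set pairs gave 0.18, 1.79 and 0.86. Across the 3 times it was the only gene (0.00951%) to pass with the set number within each time as a fixed block (adjusted p = 0.00967), where 6.97% of genes had an unadjusted p under 0.05. It did not pass in limma without a block (adjusted p = 1, F test across the times, unadjusted p = 0.00376), and no gene passed with the random block. Of all genes 0 (0%) passed this test in limma without a block and 229 (2.18%) had an unadjusted p under 0.05. Over 1, 2 and 4 h, Plk2 had −1.75, −1.61 and −0.65 and Rgs1 had −1.56, −1.44 and −0.56, and for both genes all 3 set pairs lay below 0 at each time. Ptger4 had −0.62, −0.37 and −0.16 at 1, 2 and 4 h, and Il1b 1.27, 0.05 and 0.17. None of these 4 passed the test of a difference between times (adjusted p = 1 for each in limma).

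**Figure D5:**
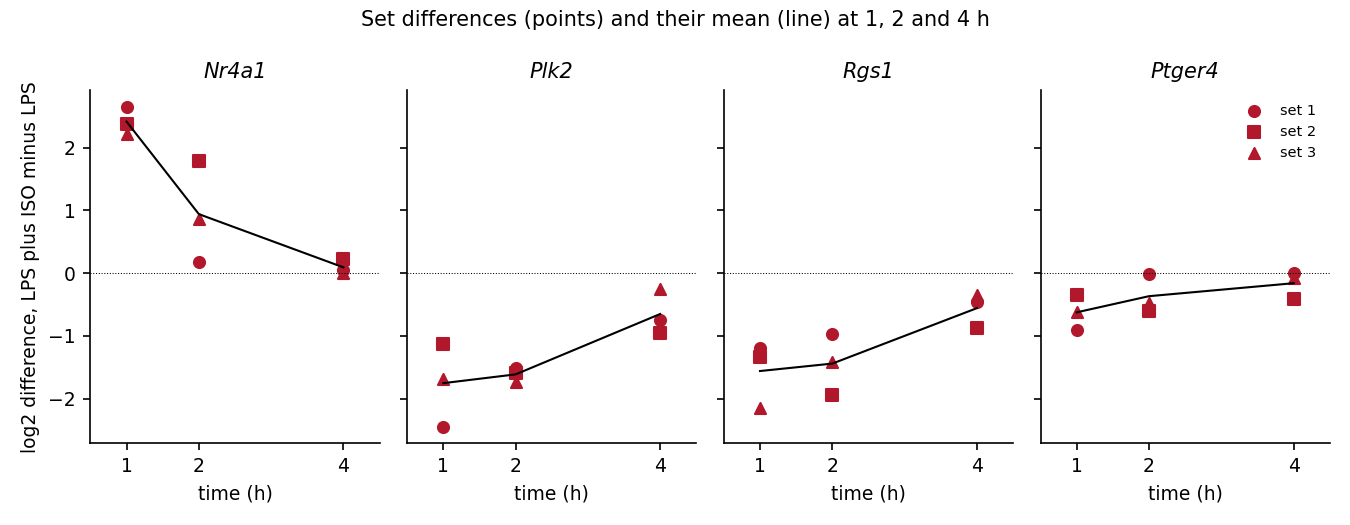
Log2 differences between LPS plus ISO and LPS at 1, 2 and 4 h. Symbols are set pairs and the line joins their means. Nr4a1 is near 0 at 4 h, and Plk2 and Rgs1 stay below 0 in every pair.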

How the data were processed

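Each of the 88 arrays held RNA of treated RAW 264.7 cells and RNA of cells in medium of the same time on 2-colour custom Agilent arrays, per the labels and design text. The authors deposited 1 table of log2 ratios per probe and array. No source used here gives the image analysis, background correction, normalization or centring. The numerator channel and the meaning of exact zeros are not stated either, and the largest absolute value (6.64) is log2 of 100. No intensities were used, so the signal behind a ratio is unknown, and the number of arrays limits the precision.

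Ratios were read as Cy5 over Cy3 and turned to treated over medium by the dye labels, and the 2 arrays of a set were averaged (44 set means, 15 groups). Of 16281 probes, 13738 had 1 gene symbol in the platform annotation, updated through Entrez identifiers to RefSeq GRCm38.p6. The 478 of these at 0 on every array were left out, and the other 13260 were averaged to 10518 genes. Zeros were kept as values and draw means toward 0.

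Set means were fitted in R 4.3.3 with limma 3.58.1 (group means over all 44 sets, eBayes without trend, 29 residual and 2.68 prior degrees of freedom), two-sided, with Benjamini-Hochberg over all genes and a threshold of 0.05. The difference between times was an F test. The fit was run on simulated data with known differences. Sets were independent there, so the simulation does not cover sets that deviate together. Same-numbered sets of LPS plus ISO and LPS at 1 h had deviations from their group means that correlated at 0.43, 0.54 and 0.35. The highest value for different numbers was −0.01, but deviations from a mean of 3 sets sum to 0, which lowers such values. The numbers were taken to pair these sets, a pairing read from the data. Between LPS plus ISO and ISO alone the values were 0.66, 0.46 and 0.28, against up to 0.31 for different numbers. The pairing of set 3 is therefore not shown there. Values with the set number within each time as a block, fixed or random (statmod 1.5.0, correlation 0.317), are alternatives added after seeing the data. The set number does not cancel in the comparison with ISO alone, so genes are given there with the random block.

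Named genes were the 12 highest and 12 lowest genes past the threshold with 1 sign in all 3 set pairs (all, being fewer), 26 chosen genes, and members of 15 gene lists with the largest differences. Members and lists were chosen with earlier results of these data known.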

Additional observations from a re-analysis of the deposited data

Results flagged for a closer look

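The difference with ISO differed between cells with and without LPS for Ier3 by −1.40 and for Zfp36 by −1.31, where a random block for the set number within each time was used (adjusted p = 0.00917 and 0.0258 in limma). Without a block both had an adjusted p of 0.249. In all 3 sets each gene had a smaller difference with LPS than without.

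Egr1, an early transcription factor gene, had a difference of −0.26 with ISO in LPS-treated cells, lower in 3 of 3 set pairs, while ISO alone gave 1.39, higher in 3 of 3 sets. Tlr4 had 0.19 with LPS, higher in 3 of 3 set pairs by 0.44, 0.07 and 0.07. With ISO alone it had −0.09, with −0.006, −0.19 and −0.08 in sets 1, 2 and 3, so set 1 lay almost at 0. With LPS, 14.5% of all genes were higher and 14.7% lower in all 3 set pairs. For both genes the difference between settings did not pass the test across all genes. The opposite directions themselves were not tested, and the values of Tlr4 are small, with 1 of its 3 averaged probes at 0 on all 12 arrays.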

How the results depend on the processing

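For LPS plus ISO versus LPS at 1 h, where 2 genes passed, the count was 0 with only the compared groups in the fit, with or without a replicate block, 0 with arrays scaled to 1 median absolute ratio, 0 with only the arrays that held treated RNA in Cy3, and 1 with only the 1 h groups, with genes at 0 on all arrays kept, or with a fit per probe. It was 6 with the replicate block of the set number within each time, and 0 to 2 when sets were left out. The 2 genes found without set 3 of both treatments were Cntn3 and Serpinf2, both lower and named after their values were seen, and neither Nr4a1 nor Plk2 passed there. With that block and set pair 1, 2 or 3 left out it was 1, 11 and 13. The set number over all groups, zeros as missing, a filter on zeros, centring, Cy5 arrays only and robust eBayes kept it at 2. Nr4a1 passed in 12 and Plk2 in 14 of 27 settings, and neither changed direction in any. Of the 27 genes followed, 7 had another sign in at least 1 setting, none of them past the threshold there. For ISO with LPS minus ISO alone, the count of 0 became 2 with only the 1 h groups, 2 with Cy3 arrays only, 15 with the fixed and 2 with the random within-time replicate block, and 0 to 1 when sets were left out. Against LPS plus PGE2 it became 1 with only the 1 h groups and 0 to 2 when sets were left out. For the difference between times it became 1 with the fixed within-time replicate block and 0 to 1 when sets were left out. The cause of these changes was not tested, beyond fewer sets in the fits that use fewer groups. Signal over background is unknown here.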
